A study of Mus musculus with 8 samples.

Results

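The genes described here are 44 chromatin regulators: the subunits of Polycomb repressive complexes 1 and 2 (PRC1 and PRC2), the Trithorax-group histone methyltransferases and their cofactors, histone demethylases, H3K9 methyltransferases, deacetylases and NuRD subunits, BAF remodelling subunits and histone acetyltransferases. They were chosen by name from a list of 45 names, in which Mof is a second name of Kat8. The assay was ATAC-seq, in which the Tn5 transposase cuts and tags accessible DNA. A peak was taken as belonging to a gene when its centre lay inside the gene, or within 50 kb of it with that gene's end as the nearest protein-coding gene end. Of the 134407 peaks in the table, 464 belonged to these genes by that rule. All samples were E14 wild-type mouse embryonic stem cells grown on gelatin in serum with LIF. The 4 control samples had no inhibitor and the 4 paused samples had 200 nM of the mTOR inhibitor INK128 for 24 hours, the treatment by which the study put cells into a paused state in culture. E14 is 1 cell line, and no source names separate cultures, so p-values measure only the spread between these samples, which may be technical.

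Polycomb and Trithorax proteins are the classic antagonists of developmental gene control. PRC2 places methyl groups on lysine 27 of histone H3 and PRC1 ubiquitinates histone H2A, both at repressed genes, while Trithorax-group enzymes of the Kmt2 family methylate lysine 4 of histone H3 at active promoters and enhancers. In embryonic stem cells these systems act together on bivalent promoters, and acetyltransferases, deacetylases and ATP-driven remodellers set how open the surrounding chromatin is. The measurement here is the accessibility of the regulators' own genes, not of the sites where the proteins act, and it gives neither their RNA nor their protein.

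Values are reads per 201 bp peak divided by 1 scaling factor per sample, called scaled reads below. Control replicate 3 had the fewest reads in peaks, 4434037, and control replicate 1 the most, 21161767, and 3 reads were worth between 1.04 scaled reads in control replicate 1 and 5.08 in control replicate 3. Peaks were tested with limma-trend on log2(scaled reads + 1), which understates the change of weak peaks, and were called at a Benjamini-Hochberg adjusted p under 0.05 over all 127402 peaks with a mean of at least 10 scaled reads. With the deposited scaling, the median of all tested peaks was 0.10 higher in paused cells on the log2 scale, and the median of all 18456 tested genes was 0.15 higher. After rescaling by TMM, a method that centres the bulk of the peaks, these medians were 0.00 and 0.04, and after a loess correction on peak strength both were -0.01. Changes are to be read against those medians. The markers of the labelled cell type were accessible: the strongest peak near Pou5f1 averaged 314 scaled reads in control and 374 in paused cells, and the 6 such peaks of the stem cell list summed to 1455 to 1632 in control and 1952 to 2094 in paused samples. The peaks of the 4 fibroblast (feeder), 2 neural and 3 primitive endoderm markers were also all present, with sums of 352 to 466, 372 to 417 and 469 to 629 in control samples and 418 to 452, 407 to 484 and 573 to 697 in paused samples. The part of these other cell types in the results below was not tested.

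Promoters of the member genes were rich in CpG. RefSeq (GRCm38.p6, the mm10 assembly) lists 52 promoter windows, each from 250 bases before to 50 bases after a start site, for 38 of the 44 genes. Their median GC content was 65.2%, against 56.3% over all 21262 listed promoters, and their median number of CpG dinucleotides was 28 against 13. The GC box GGGCGG, the letters recognised by Sp1-family factors, was found on either strand in 80.8% of the member windows and in 46.2% of all windows. CCAAT was found in 38.5% and 38.2%, TATAAA in 3.85% and 12.6%, the ETS core CCGGAAG in 5.77% and 11.6%, the E-box CACGTG in 9.62% and 7.84%, the NRF1 core GCGCATGC in 5.77% and 3.51%, the YY1 core AAGATGGC in 3.85% and 3.05%, and the cAMP response element TGACGTCA in 1.92% and 2.23%. Windows of 1 gene can overlap, and a match of letters is not a bound site. No listed motif letters are contained in another motif, but neighbouring GC boxes can share bases.

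The 5 windows below are shown because a called or centrally placed start-site peak lies over each of them. Setdb1, Ezh1 and Arid1a are the 3 genes whose called start-site peak lies over the listed window, and Ezh2 and Suz12 encode the PRC2 core and their peaks did not pass the test. Sequences are 5′ to 3′ on the gene's strand, and capitals mark matches to any of the 8 motifs on either strand.
Setdb1, minus strand, chr3:95357153-95357452: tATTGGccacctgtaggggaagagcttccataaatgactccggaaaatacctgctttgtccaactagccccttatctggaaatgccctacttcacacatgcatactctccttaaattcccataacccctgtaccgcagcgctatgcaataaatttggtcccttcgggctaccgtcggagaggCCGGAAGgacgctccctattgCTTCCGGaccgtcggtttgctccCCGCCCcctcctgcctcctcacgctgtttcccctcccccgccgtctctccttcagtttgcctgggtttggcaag
Ezh1, minus strand, chr11:101226414-101226713: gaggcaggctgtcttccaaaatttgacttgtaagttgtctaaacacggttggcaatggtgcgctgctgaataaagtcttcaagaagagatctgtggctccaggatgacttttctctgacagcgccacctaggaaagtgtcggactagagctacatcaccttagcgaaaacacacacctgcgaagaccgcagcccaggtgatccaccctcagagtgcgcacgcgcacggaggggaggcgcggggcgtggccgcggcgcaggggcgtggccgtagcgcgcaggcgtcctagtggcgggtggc
Arid1a, minus strand, chr4:133756720-133757019: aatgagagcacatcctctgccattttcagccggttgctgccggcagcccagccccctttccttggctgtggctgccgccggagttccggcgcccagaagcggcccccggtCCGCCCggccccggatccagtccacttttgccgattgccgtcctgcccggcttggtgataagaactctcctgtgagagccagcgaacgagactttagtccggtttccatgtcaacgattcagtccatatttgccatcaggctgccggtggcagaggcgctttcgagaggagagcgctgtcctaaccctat
Ezh2, minus strand, chr6:47594981-47595280: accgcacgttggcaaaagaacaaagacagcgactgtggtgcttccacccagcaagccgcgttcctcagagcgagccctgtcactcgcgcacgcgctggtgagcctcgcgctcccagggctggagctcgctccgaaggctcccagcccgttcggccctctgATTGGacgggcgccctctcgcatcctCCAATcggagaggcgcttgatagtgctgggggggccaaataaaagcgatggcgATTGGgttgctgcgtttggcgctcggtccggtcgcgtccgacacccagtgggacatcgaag
Suz12, plus strand, chr11:79992856-79993155: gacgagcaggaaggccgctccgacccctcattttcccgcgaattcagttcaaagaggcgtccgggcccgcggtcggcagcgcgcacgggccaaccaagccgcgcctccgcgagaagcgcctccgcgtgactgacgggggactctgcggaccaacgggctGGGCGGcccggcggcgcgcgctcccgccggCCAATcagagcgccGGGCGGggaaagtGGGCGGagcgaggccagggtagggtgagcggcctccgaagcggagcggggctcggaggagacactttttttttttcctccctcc
The Setdb1 window holds a CCAAT box, a pair of ETS cores and 1 GC box, and its peak centre lies 53 bases before the start site. In the Ezh1 window none of the 8 motifs was found, which says only that those letters are not in these 300 bases. The Arid1a window, at the upstream of its listed start sites, holds 1 GC box. Ezh2 carries 3 CCAAT boxes and no GC box, and Suz12 carries 1 CCAAT box and 3 GC boxes.

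Start-site peaks were the strongest peak of 33 genes, and their changes were small. The question is whether the promoters of the regulators opened or closed during pausing. A peak within 1 kb of a listed start site, or of either gene end for the 6 genes with none listed (Kmt2b, Ash2l, Pcgf1, Hdac1, Chd1 and Cbx2), was found for 41 genes, and the strongest such peak was taken for each. Its mean ranged from 35.7 to 427 scaled reads with a median of 198. The log2 change ranged from -0.09 at Cbx7 to 0.44 at Ash2l with a median of 0.21, and 37 of the 41 were above 0. The same count was 33 after TMM rescaling, 28 after rescaling to total reads and 23 after the loess correction. Among all 11266 tested peaks within 1 kb of a listed start site, the median was 0.18. That set is unlike the 41, which are the strongest peak of each gene and include 6 by a gene end. All 37 member peaks within 1 kb of a listed start site had a median of 0.21.

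Of these 41 peaks, 7 rose and 0 fell with limma-trend. Over all 11266 start-site peaks, not only the strongest of each gene, 11.0% passed upward and 0.666% downward. Of the 37 member peaks within 1 kb of a listed start site, 5 rose (13.5%) and 0 fell. The 7 lie at Ash2l, Setdb1, Ep300, Cbx2, Ezh1, Kmt2c and Arid1a. After TMM rescaling, and after the loess correction, 0 of the 41 were called. Among the 37 member peaks within 1 kb of a listed start site, 0 were lower at an unadjusted p under 0.05, and edgeR with TMM and DESeq2 also called 0 of them lower. The 6 genes with no listed start have 8 peaks within 1 kb of either end, with log2 changes down to -1.01. Of these 8, 1 was lower at an unadjusted p under 0.05 with limma-trend. TMM rescaling and edgeR with TMM each called 1 lower, and DESeq2 0.

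**Figure D1:**
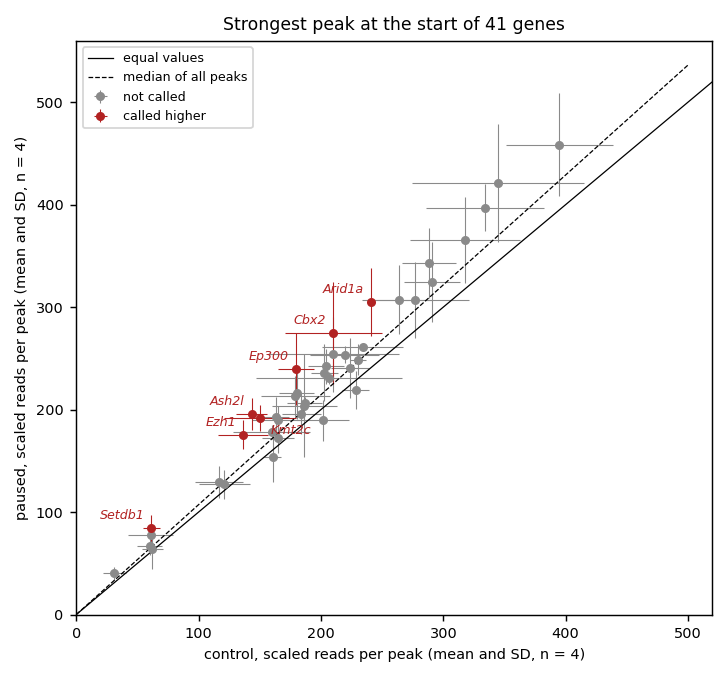
Mean scaled reads in control samples (horizontal axis) against paused samples (vertical axis) for the strongest start-site peak of 41 genes, with SD bars (n = 4). The 7 called peaks, in red and named, lie above the dashed line that marks the median of all peaks, and most of the grey peaks lie near it.

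Ep300, which encodes a histone acetyltransferase and coactivator, had the largest change among 10 genes whose start-site peak was to be described whatever its values. Its peak, 686 bp before the start site at chr15:81585428-81585628, had 173, 197, 185 and 163 scaled reads in control replicates 1 to 4 and 275, 194, 231 and 259 in paused replicates 1 to 4. Paused replicate 2 lies within the control range. The log2 change was 0.41 (SE 0.12, adjusted p = 0.0168 by limma-trend). The call ended after TMM rescaling (0.30, adjusted p = 0.0886), after the loess correction, after rescaling to total reads and in DESeq2. It also ended without any 1 of control replicate 4, paused replicate 1 or paused replicate 4, with adjusted p up to 0.0744.

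The other 9 of those start-site peaks did not pass the test. For Ezh2, the main methyltransferase of PRC2, control samples had 257, 300, 300 and 307 scaled reads and paused samples 329, 273, 368 and 330. The groups overlap, and the log2 change was 0.15 (SE 0.11, adjusted p = 0.357 with limma-trend). Eed, which binds the mark that PRC2 makes, had 161, 195, 176 and 188 in control and 232, 230, 223 and 178 in paused samples, a log2 change of 0.26 (SE 0.12, adjusted p = 0.136). Suz12, the scaffold of PRC2, had 317, 399, 335 and 285 in control and 398, 366, 422 and 403 in paused samples, a log2 change of 0.26 (SE 0.11, adjusted p = 0.0979). In Ezh2, Eed and Suz12 alike at least 1 paused sample lies inside the control range.

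For Jarid2, a PRC2 cofactor, the start-site peak is weaker, with 55.7, 75.2, 55.9 and 52.9 scaled reads in control and 65.8, 58.4, 79.1 and 64.4 in paused samples (log2 change 0.16, adjusted p = 0.528). Rnf2, the ubiquitin ligase of PRC1, had 197, 293, 159 and 176 in control and 224, 232, 230 and 238 in paused samples (log2 change 0.20, adjusted p = 0.313). Its paused samples lie close together inside a wide control range. At Kmt2b, an H3K4 methyltransferase, control samples had 372, 397, 455 and 356 and paused samples 396, 464, 518 and 457 (log2 change 0.22, adjusted p = 0.165). Kdm1a, an H3K4 demethylase, had 162, 221, 168 and 166 in control and 242, 207, 206 and 199 in paused samples (log2 change 0.26, adjusted p = 0.136). Chd1, a remodeller that recognises methylated H3K4, had 147, 177, 171 and 165 in control and 150, 180, 180 and 178 in paused samples (log2 change 0.06, adjusted p = 0.773). Kat8, the H4K16 acetyltransferase MOF, had 249, 234, 330 and 295 in control and 332, 254, 332 and 310 in paused samples (log2 change 0.15, adjusted p = 0.399). All these groups overlap, and the signs for Ezh2, Rnf2, Chd1 and Kat8 turned negative under at least 1 other scaling.

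Summing the scaled reads of all peaks of a gene gave 1 value per gene and sample. The 44 genes had between 1 peak (Mbd3, Pcgf1 and Ring1) and 63 (Jarid2), with a median of 7.5. With the deposited scaling, 19 of the 44 sums rose and 0 fell (limma-trend over all 18456 genes). The background is high: the call was made upward for 30.1% of all genes and downward for 1.39%. The member share was 43.2%, while their median log2 change of 0.14 was close to the 0.15 of all genes, and 20 of the 44 lay above it. At an unadjusted p under 0.05, 0 sums were lower, DESeq2 called 0 lower, and edgeR with TMM called 1.

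Most of the 19 calls depended on the scaling. After TMM rescaling 4 sums were higher (Setdb1, Wdr5, Kmt2c and Crebbp) and 1 was lower (Aebp2), where 7.66% of all genes went up and 2.39% down by the same test. The loess correction left 2 higher (Setdb1 and Crebbp) and 1 lower (Aebp2), against 4.79% and 4.50% of all genes. The members' median was 0.04 after TMM rescaling and -0.01 after the loess correction, so their shift relative to all genes was near 0 in each case. Without paused replicate 4, 9 sums were called higher, and without paused replicate 3, 12 were. Over all 18456 genes the calls upward also fell, from 5563 to 3728 without paused replicate 4 and to 4054 without paused replicate 3.

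**Figure D2:**
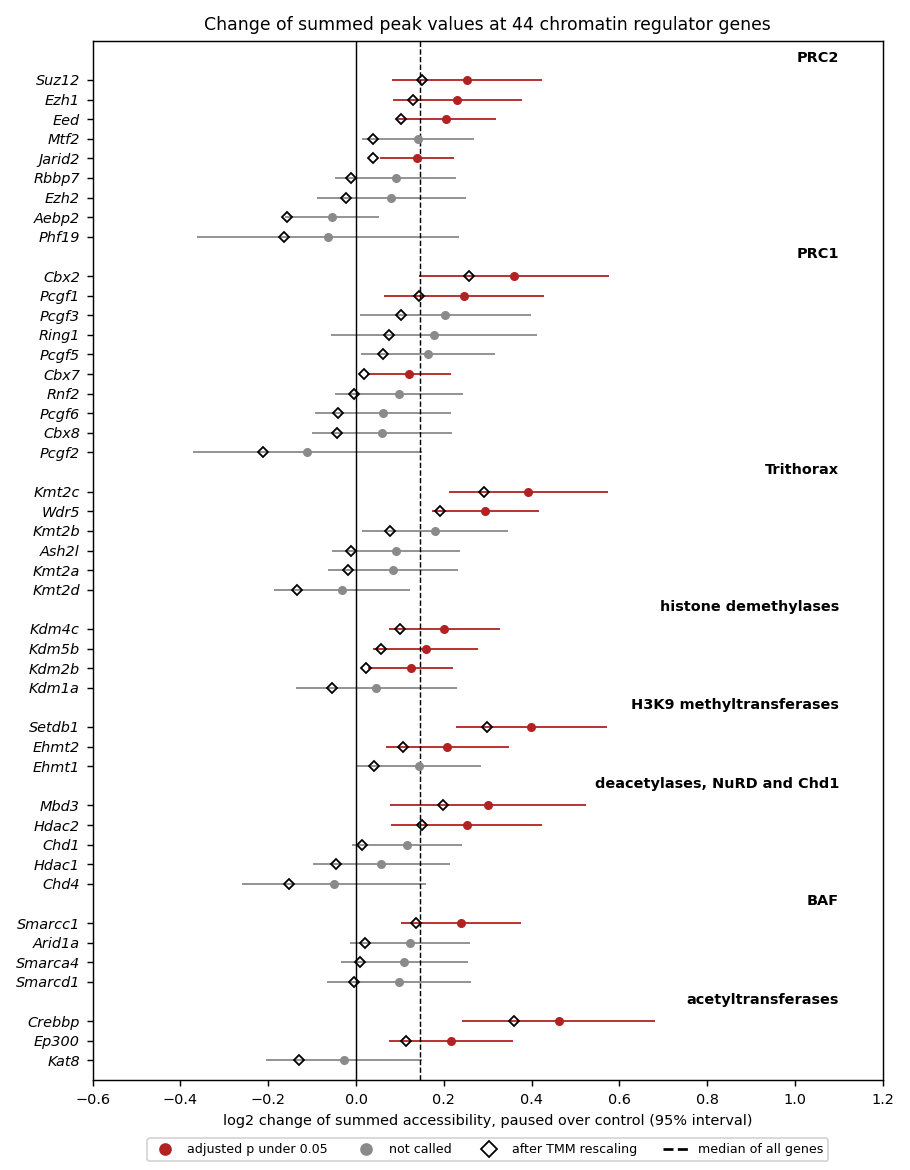
Log2 change of the summed scaled reads of each gene, paused over control, with 95% intervals (limma-trend), grouped by complex, where diamonds give the value after TMM rescaling. The 19 called genes are red, the dashed line at 0.15 is the median of all genes, and most intervals include it.

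Per peak, 440 of the 464 had enough signal for the test, 39 rose, 9 fell and 392 were not called. The shares, 8.86% higher and 2.05% lower, lie below those of all peaks, 11.0% higher and 2.91% lower, and the members' median log2 change was 0.06 against 0.10. Under TMM rescaling 17 member peaks were higher and 12 lower, where the shares of all peaks were 5.99% and 4.15%. After the loess correction they were 10 and 12, where the shares of all peaks were 5.08% and 3.54%. By leaving out 1 sample, the count of higher peaks fell to 24 without control replicate 1, 24 without control replicate 4 and 19 without paused replicate 4. Over all 127402 peaks the higher calls fell as well, from 13958 to 10623, 11874 and 8980 in the same order. The count of lower member peaks was 5 without control replicate 3 and 5 without control replicate 4, where that of all peaks fell from 3702 to 2314 and 2319.

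Called peaks were spread over 25 genes, and 19 genes had none. Peaks were called in both directions at 6 genes (Aebp2, Mtf2, Ezh1, Ash2l, Kmt2a and Chd1), only higher at 18 and only lower at Kat8. At Aebp2 the only rise, and at Ezh1 the only fall, is a weak peak from which no change is read below. The same counts over all genes were not made, and the number of peaks per member gene ran from 1 to 63. No trait of the members is therefore read from these counts of genes. Inside genes 16 peaks rose (6.13%) and 3 fell (1.15%) of 261 tested. Outside genes 16 rose (11.9%) and 6 fell (4.48%) of 134, where 11.0% of all peaks rose and 2.91% fell. The median log2 change was 0.02 inside, 0.03 outside and 0.21 at listed start sites. Change moved with peak strength: the 198 member peaks stronger than the median of all tested peaks had a median of 0.18 and the 242 weaker ones -0.08, while all stronger and weaker peaks had 0.17 and -0.02. The part of peak strength in these calls was not tested. Among called peaks, those with a log2 change of at least 1 lie at Crebbp, Wdr5 and Kdm4c, beside a weak peak near Aebp2 whose control samples lie near 0. Of the peaks nearest the 50 kb limit, the outermost counted one lies 49882 bp from Aebp2 (12.01 scaled reads in control, 18.04 in paused samples) and the nearest one left out lies 50090 bp from Ep300 (36.5 and 50.6).

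**Figure D3:**
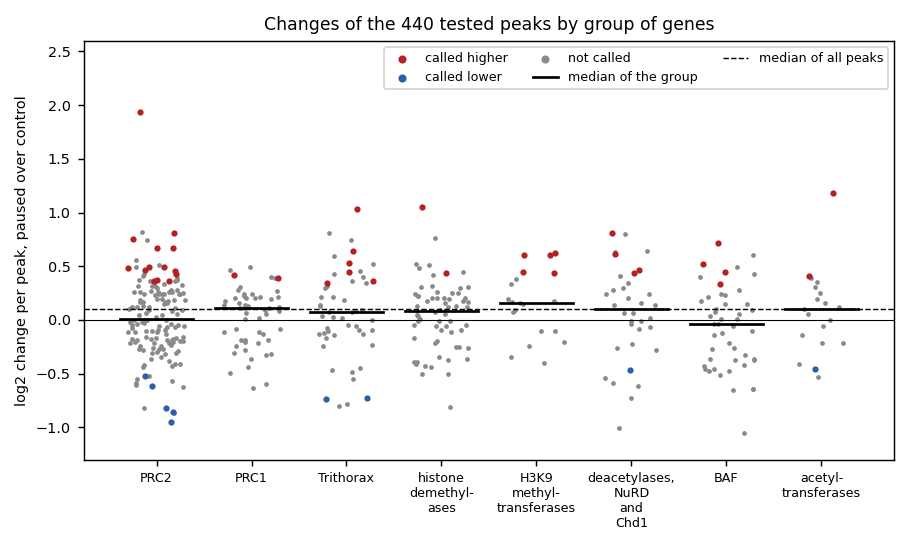
Log2 change of each of the 440 tested peaks, paused over control, by group of genes, with called peaks in red (39 higher) and blue (9 lower). Black bars are group medians, which run from -0.04 (BAF) to 0.16 (H3K9 methyltransferases) around the dashed median of all peaks at 0.10.

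PRC2 had the most peaks, 150 tested, of which 14 rose (9.33%) and 5 fell (3.33%), where 11.0% of all peaks rose and 2.91% fell. The median log2 change of the 150 was 0.01 (-0.09 after TMM rescaling and -0.05 after the loess correction), and 61 of them lie at Jarid2. Eed, which reads the PRC2 mark, rose as a sum, from 1148 ± 95.1 to 1320 ± 27.5 scaled reads (SD over 4 samples in each group). On the log2 scale the change was 0.21 with an SE of 0.06, and limma-trend gave an adjusted p of 0.00682. Its strongest call lies inside the gene, 2763 bp from the 3′ end, at chr7:89957317-89957517. Control samples had 54.3, 59.7, 45.7 and 54.4 scaled reads there and paused samples 75.0, 88.3, 85.3 and 93.7. Every paused sample is above every control sample, and the log2 change was 0.67 (SE 0.15, adjusted p = 0.00209). The peak kept its call in 18 of 19 alternatives and had an adjusted p of 0.0547 in DESeq2, while the sum's call ended after TMM rescaling (0.10, adjusted p = 0.225).

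Jarid2, which helps recruit PRC2, has 63 peaks over its 191 kb and flanks. Its sum was 2243, 2237, 2049 and 2256 scaled reads in control and 2419, 2500, 2293 and 2464 in paused samples, with no overlap. In log2 terms the change was 0.14 (SE 0.04, adjusted p = 0.0119 with limma-trend), below the median of all genes. It was 0.04 after TMM rescaling (adjusted p = 0.59) and negative after rescaling to total reads, and without control replicate 3 the adjusted p was 0.0594. One peak inside the gene, about 5 kb from its 5′ end at chr13:44735489-44735689, had 42.2, 25.1, 33.9 and 45.6 in control and 62.3, 64.7, 71.4 and 56.2 in paused samples. That peak rose by a log2 change of 0.81 (SE 0.18, adjusted p = 0.00216), and its call ended only in DESeq2 (adjusted p = 0.0607) among 18 alternatives. In all, 4 Jarid2 peaks rose and none fell at the adjusted threshold, out of 61 tested, where 11.0% of all peaks rose and 2.91% fell.

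Aebp2, a zinc-finger cofactor of PRC2, held the falling member peak with the smallest adjusted p. This peak, 293 bp past the 3′ end of the gene at chr6:140678665-140678865, had 67.8, 68.1, 62.7 and 70.5 scaled reads in control and 42.7, 41.0, 29.5 and 35.2 in paused samples. All paused samples are below all control samples, and the log2 change was -0.85 (SE 0.17, adjusted p = 0.000563 by limma-trend). The call held in all 19 alternatives, with log2 changes from -1.01 to -0.75 and adjusted p up to 0.0031. A neighbouring peak 2423 bp past the 3′ end, at chr6:140680795-140680995, had 125, 113, 108 and 107 in control and 99.2, 59.9, 82.2 and 78.5 in paused samples. It also fell without overlap (log2 change -0.52, SE 0.14, adjusted p = 0.0115), although without paused replicate 2 the adjusted p was 0.0711. This neighbour, like the falling peaks of Mtf2, Ezh1, Ash2l, Kmt2a and Kat8 below, was picked out after its values were seen.

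Farther out, 21596 bp past the end of Aebp2, a weak peak had 6.57, 7.17, 0 and 4.41 scaled reads in control and 10.4, 18.9, 18.6 and 15.2 in paused samples. It was also picked out after its values were seen, and it reached the mean of 10 needed for the test only through the paused samples. The 0 in control replicate 3 sits where 3 reads are worth 5.08, so no change is read from this peak, although it counts among the 39 higher calls. The summed Aebp2 value did not pass the test with the deposited scaling (log2 change -0.05, adjusted p = 0.431) and was called lower after TMM rescaling (-0.16) and with the loess correction. Start-site accessibility of Aebp2 was 184 ± 15.9 scaled reads in the controls and 196 ± 19.6 when paused (SD over 4 samples in each group), and its log2 change of 0.09 was not called.

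Mtf2, another PRC2 cofactor, had 3 peaks that rose and 2 that fell. Both falling peaks lie upstream. The one 21.5 kb before the gene, at chr5:108044069-108044269, had 42.2, 50.2, 47.4 and 51.4 in control and 30.0, 30.0, 29.5 and 34.0 in paused samples (log2 change -0.61, SE 0.18, adjusted p = 0.0202). The one 15.6 kb before it, at chr5:108049968-108050168, had 33.2, 22.7, 40.6 and 30.9 in control and 13.8, 22.1, 15.5 and 18.8 in paused samples (log2 change -0.82, SE 0.24, adjusted p = 0.0204). Neither shows overlap between the groups. The first call ended in DESeq2 (adjusted p = 0.0651) and without control replicate 2 or 4 (up to 0.0555). The second ended without control replicate 1, control replicate 3 or paused replicate 1 (up to 0.087). The rising peaks of Mtf2 had log2 changes of 0.36, 0.42 and 0.49, so that changes of either sign lay along 1 gene.

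Ezh1, the second methyltransferase of PRC2, rose as a sum, from 426 ± 17.6 to 501 ± 20.6 scaled reads (SD over 4 samples in each group). The log2 change was 0.23 with an SE of 0.07, and limma-trend gave an adjusted p of 0.016. Its control samples reached 447 at most and its paused samples began at 481. The call ended after TMM rescaling (0.13, adjusted p = 0.245) and without paused replicate 4 (0.0688). A weak peak 1306 bp before the gene, at chr11:101227669-101227869, had 20.4, 20.3, 11.9 and 26.5 in control and 16.2, 6.31, 7.76 and 9.37 in paused samples, with overlap (log2 change -0.95, SE 0.33, adjusted p = 0.0471). It reached the mean of 10 needed for the test only through the control samples, as its paused mean was 9.90. So no change is read from this peak, although it counts among the 9 lower calls. Its call ended without any 1 of 6 samples (control replicates 1, 2 and 4 and paused replicates 2, 3 and 4), with adjusted p up to 0.159. It also ended after the loess correction (-0.83, adjusted p = 0.112), in DESeq2 (0.105) and with a pseudocount of 0.1 (0.0508). Suz12 was also called as a sum (log2 change 0.25, and 0.15 with an adjusted p of 0.267 after TMM rescaling), while Mtf2, Rbbp7, Ezh2, Aebp2 and Phf19 were not.

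**Figure D4:**
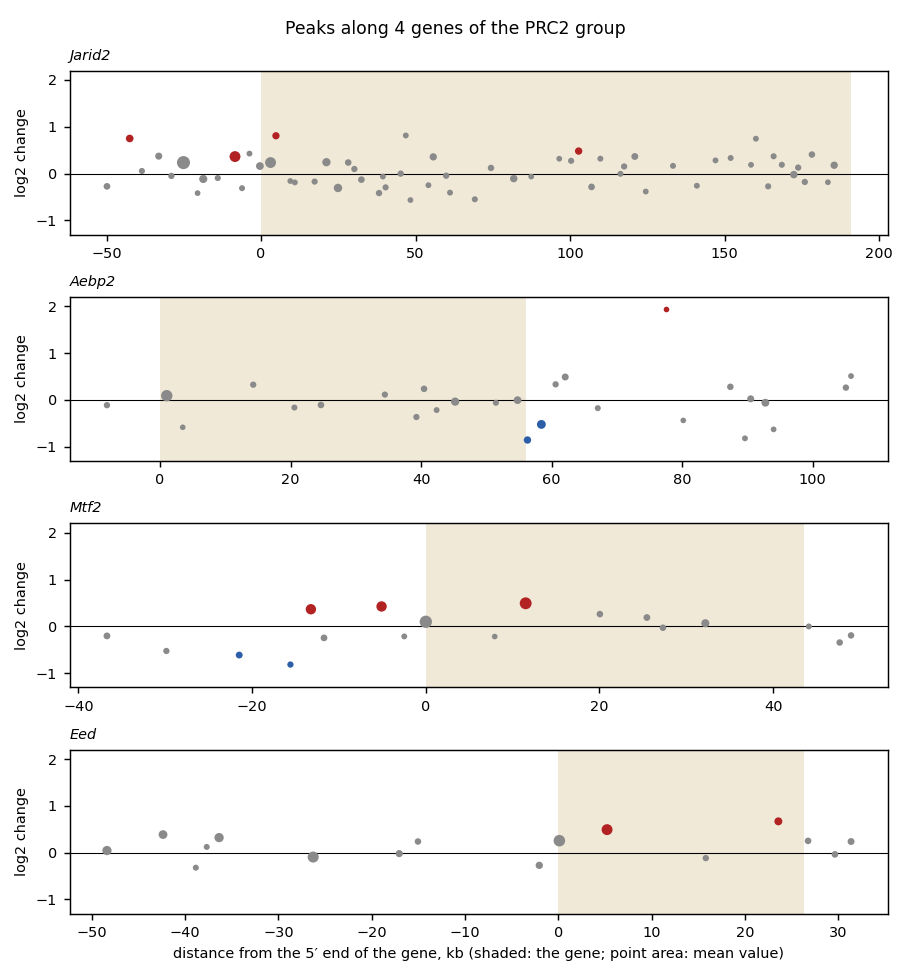
Log2 change of each tested peak against its distance from the 5′ end of the gene in kb for Jarid2, Aebp2, Mtf2 and Eed, where shading marks the gene and point area grows with mean scaled reads. Red points are called higher and blue points called lower, and the 2 blue points at Aebp2 lie just past its 3′ end while those at Mtf2 lie upstream.

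Of the 53 tested peaks of PRC1, 2 rose and none fell by limma-trend (3 were lower at an unadjusted p under 0.05, edgeR with TMM called 3 lower and DESeq2 0), where 11.0% of all peaks rose and 2.91% fell. With a mean of at least 50 reads 4 were higher, 5 with edgeR on the deposited factors and 5 with the replicate block, against 0 after the loess correction and 0 in DESeq2. Of all peaks, 9696 of 44882 were higher with a mean of at least 50 reads. Of 127402, 16424 were higher with edgeR on the deposited factors, 17371 with the block, 6476 after the loess correction and 3902 in DESeq2. The median log2 change of the PRC1 peaks was 0.11, and -0.07 after the loess correction. Cbx7, the main chromodomain subunit of PRC1 in embryonic stem cells, has a strong peak inside the gene, about 12 kb from its nearer end, at chr15:79927756-79927956. It had 227, 195, 227 and 222 scaled reads in control and 254, 287, 301 and 322 in paused samples, with no overlap (log2 change 0.42, SE 0.11, adjusted p = 0.00853 by limma-trend). The call ended after the loess correction (0.21, adjusted p = 0.182), after rescaling to total reads, in DESeq2 and without paused replicate 4 (0.0539). The peak also belongs to the neighbouring gene Apobec3 by the same rule.

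Cbx2, a chromodomain subunit linked to chromatin compaction, had the largest change among the PRC1 sums. Its values were 233, 299, 208 and 219 in control and 365, 273, 306 and 284 in paused samples, so that control replicate 2 lies above paused replicates 2 and 4. On the log2 scale the change was 0.36 (SE 0.11, adjusted p = 0.0118), and 0.26 after TMM rescaling (adjusted p = 0.13). Without paused replicate 1 the adjusted p was 0.0572. Pcgf1, of the variant complex PRC1.1, and Cbx7 were the other PRC1 sums called, with log2 changes of 0.25 and 0.12. Both calls ended after TMM rescaling (0.14, adjusted p = 0.302, and 0.02, adjusted p = 0.837). The 7 not called ran from -0.11 at Pcgf2 to 0.20 at Pcgf3.

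The Trithorax group had 6 rising (11.5%) and 2 falling peaks (3.85%) of 52 tested, where 11.0% of all peaks rose and 2.91% fell. Its median log2 change was 0.08 (-0.02 after TMM rescaling). Wdr5, the WD-repeat subunit shared by the Kmt2 complexes, had 2 rising peaks downstream of the gene. At chr2:27572530-27572730, 36095 bp past the gene's end, control samples had 62.9, 57.3, 45.7 and 44.1 scaled reads and paused samples 95.8, 147, 82.2 and 114. At chr2:27546090-27546290, 9655 bp past the end, control samples had 99.6, 96.7, 74.5 and 104 and paused samples 141, 180, 118 and 151. At either site every paused sample is above every control sample.

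The log2 changes at these Wdr5 peaks were 1.03 (SE 0.16, adjusted p = 3.39e-05 by limma-trend) and 0.64 (SE 0.14, adjusted p = 0.00141), and both calls held in all 19 alternatives, with adjusted p up to 0.000832 and 0.0338. The peaks were joined to Wdr5 by distance alone. Its sum rose from 881 ± 47.3 to 1081 ± 74.4 (SD over 4 samples in each group). In log2 terms the change was 0.29 with an SE of 0.06, and limma-trend gave an adjusted p of 0.000675. After TMM rescaling the sum's change was 0.19 (adjusted p = 0.0334), and after the loess correction 0.12 (adjusted p = 0.234). The start-site peak of Wdr5 was not called (log2 change 0.22).

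Kmt2c, an H3K4 methyltransferase that acts at enhancers, rose as a sum, from 296, 311, 235 and 279 in control to 348, 361, 382 and 375 in paused samples. No samples overlap, and the log2 change was 0.39 (SE 0.09, adjusted p = 0.00178 with limma-trend), with 0.29 after TMM rescaling (adjusted p = 0.0293) and 0.23 after the loess correction (adjusted p = 0.0735). A peak inside it, 4079 bp from the 3′ end at chr5:25275774-25275974, had 76.4, 72.9, 66.0 and 77.9 in control and 92.3, 101, 115 and 118 in paused samples (log2 change 0.53, SE 0.14, adjusted p = 0.00759). That call ended after the loess correction (0.35, adjusted p = 0.102), after rescaling to total reads and in DESeq2.

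Ash2l, a core subunit of the Kmt2 complexes, held changes of either sign. A peak inside the gene, 3536 bp from 1 end at chr8:25819436-25819636, had 68.8, 57.3, 93.1 and 89.6 in control and 38.1, 41.0, 46.6 and 58.6 in paused samples. Only paused replicate 4 reaches the lowest control sample, and the log2 change was -0.73 (SE 0.17, adjusted p = 0.00358 by limma-trend). The call held in all 19 alternatives, with adjusted p up to 0.0234. At the other end of the gene, 42 bp outside it, a peak of 148, 158, 141 and 128 scaled reads in control rose to 206, 191, 175 and 210 in paused samples (log2 change 0.44, SE 0.12, adjusted p = 0.00871), and after TMM rescaling the adjusted p was 0.0513. The Ash2l sum did not pass the test (log2 change 0.09).

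At Kmt2a, the Trithorax homologue MLL1, a peak 11.4 kb before the gene, at chr9:44892670-44892870, had 34.9, 45.4, 62.7 and 50.0 in control and 15.0, 23.7, 45.0 and 37.5 in paused samples. The groups overlap, and the log2 change was -0.74 (SE 0.24, adjusted p = 0.0308). The call ended without any 1 of control replicates 3 and 4 and paused replicates 1 and 2, with adjusted p up to 0.177. It also ended in DESeq2 and in edgeR with the deposited factors. A stronger peak 1396 bp before Kmt2a, at chr9:44882648-44882848, rose from 165 ± 13.2 to 210 ± 19.2 scaled reads (SD over 4 samples in each group), without overlap. It was also picked out after its values were seen. Its log2 change was 0.34 (SE 0.11, adjusted p = 0.0399 by limma-trend), and the call ended after TMM rescaling (0.24, adjusted p = 0.166). The sums of Kmt2a, Kmt2b and Kmt2d were not called (log2 changes 0.08, 0.18 and -0.03).

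Histone demethylases had 2 rising peaks (3.08%) and none falling of 65 tested, where 11.0% of all peaks rose and 2.91% fell. At an unadjusted p under 0.05 with limma-trend 2 were lower, edgeR with TMM called 1 lower and DESeq2 0. The group's median log2 change was 0.08 (-0.01 after TMM rescaling). Kdm5b removes methyl groups from H3K4. A peak inside it at chr1:134570671-134570871, 10.6 kb from its start, had 170, 184, 178 and 173 scaled reads in control and 221, 256, 228 and 255 in paused samples. The groups are well apart, with a log2 change of 0.44 (SE 0.11, adjusted p = 0.00562 by limma-trend). The call ended after the loess correction (0.23, adjusted p = 0.142), after rescaling to total reads and in DESeq2, and the peak also belongs to Mgat4e by the same rule.

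Kdm4c, an H3K9 demethylase, has a peak 1073 bp past its 3′ end, at chr4:74406837-74407037. It is weak, with 20.4, 20.3, 6.77 and 16.2 scaled reads in control and 39.2, 20.5, 43.4 and 28.1 in paused samples, and paused replicate 2 is only just above the highest control sample. The log2 change was 1.05 (SE 0.29, adjusted p = 0.0113 by limma-trend). The call ended in DESeq2 (adjusted p = 0.112) and without any 1 of control replicate 3, paused replicate 1 and paused replicate 3 (up to 0.0676). The Kdm4c sum rose from 871 ± 59.99 to 1002 ± 77.5 (SD over 4 samples in each group). On the log2 scale the change was 0.20 with an SE of 0.06, and limma-trend gave an adjusted p of 0.0157, a call that ended after TMM rescaling (0.10, adjusted p = 0.304) and without control replicate 4 or paused replicate 3 (up to 0.078). Kdm5b and Kdm2b were also called as sums, with log2 changes of 0.16 and 0.12, and Kdm1a was not (0.05). Neither call held after TMM rescaling (0.06, adjusted p = 0.56, and 0.02, adjusted p = 0.812).

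Among the H3K9 methyltransferases 5 of 20 tested peaks rose (25.0%) and none fell, where 11.0% of all peaks rose and 2.91% fell. At an unadjusted p under 0.05 with limma-trend 0 were lower, and edgeR with TMM and DESeq2 also called 0 lower. After TMM rescaling 1 of the 20 was called higher, and after the loess correction 0, where 5.99% and 5.08% of all peaks rose. Setdb1, which silences retroelements with its partner Trim28, held 4 of the 5. A peak 13.0 kb before the gene, at chr3:95370137-95370337, had 34.9, 49.0, 37.3 and 54.4 scaled reads in control and 61.1, 67.8, 69.8 and 70.3 in paused samples (log2 change 0.63, SE 0.17, adjusted p = 0.00973). Near the 3′ end, at chr3:95324839-95325039, a peak that also belongs to Cers2 by the same rule had 31.8, 51.4, 32.2 and 32.3 in control and 56.5, 55.2, 54.3 and 55.1 in paused samples (log2 change 0.60, SE 0.18, adjusted p = 0.0213). At both, the paused samples lie closer together than the control samples and above all of them.

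The Setdb1 start-site peak, over the window printed above, had 68.8, 59.7, 64.3 and 52.9 scaled reads in control and 98.1, 71.0, 76.0 and 91.4 in paused samples (log2 change 0.44, SE 0.15, adjusted p = 0.0432 by limma-trend), and after TMM rescaling the adjusted p was 0.146. As a sum Setdb1 rose from 246, 282, 252 and 278 to 348, 360, 326 and 362, with no overlap (log2 change 0.40, SE 0.08, adjusted p = 0.000978). This was the most stable of the sums: it was called in 18 of 19 alternatives, among them TMM rescaling (0.30) and the loess correction (0.27), and its adjusted p was 0.0568 after rescaling to total reads. The single peaks were less so. The upstream call ended after the loess correction (0.48, adjusted p = 0.0676) and without control replicate 1 (0.0554), and the call near the 3′ end ended after TMM rescaling (0.50, adjusted p = 0.0691) and without any 1 of control replicates 1, 3 and 4 and paused replicate 4 (up to 0.0748). Both of these calls also ended after rescaling to total reads and in DESeq2.

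Ehmt2, the H3K9 methyltransferase G9a, rose as a sum from 523 ± 34.4 to 604 ± 18.4 scaled reads (SD over 4 samples in each group). In log2 terms the change was 0.21 with an SE of 0.07, and limma-trend gave an adjusted p of 0.0224. A peak inside it at chr17:34902950-34903150 had 126, 119, 120 and 112 in control and 156, 128, 177 and 198 in paused samples (log2 change 0.44, SE 0.13, adjusted p = 0.0169). Paused replicate 2 is the only paused sample near the control values. Both calls ended after TMM rescaling (adjusted p = 0.324 for the sum and 0.0749 for the peak), after rescaling to total reads, after the loess correction and in DESeq2. They also ended without control replicate 4 or paused replicate 4 (up to 0.0757 and 0.107), and the sum's call without control replicate 3 or paused replicate 3.

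Deacetylases, NuRD subunits and Chd1 had 4 rising peaks (11.8%) and 1 falling peak (2.94%) of 34 tested, where 11.0% of all peaks rose and 2.91% fell. Their median log2 change was 0.10 (0.00 after TMM rescaling). After TMM rescaling 0 were called higher and 3 lower, where 5.99% and 4.15% of all peaks were. Chd1 held 3 of the rises and the fall. A peak inside it at chr17:15715284-15715484 had 72.6, 84.8, 86.4 and 80.8 scaled reads in control and 58.8, 58.4, 46.6 and 71.5 in paused samples, a fall without overlap (log2 change -0.47, SE 0.15, adjusted p = 0.0329 by limma-trend). A peak 26.9 kb outside the gene, at chr17:15677989-15678189, had 65.0, 70.5, 64.3 and 79.4 in control and 80.8, 91.5, 107 and 108 in paused samples (log2 change 0.46, SE 0.14, adjusted p = 0.0257). After TMM rescaling the fall was -0.57 (adjusted p = 0.0126) and the rise 0.36 (adjusted p = 0.0924). Leaving out any 1 of control replicates 2, 3 and 4 and paused replicates 1, 2 and 3 ended the call of the fall (adjusted p up to 0.114), and any 1 of control replicates 1 and 3 and paused replicates 3 and 4 that of the rise (up to 0.0978). DESeq2 ended both calls. The fall's call also ended in edgeR with the deposited factors, and the rise's after the loess correction and after rescaling to total reads.

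Hdac2, a class I deacetylase, has a weak peak 38.1 kb before the gene, at chr10:36936095-36936295, with 13.5, 28.7, 28.8 and 17.6 scaled reads in control and 30.0, 36.3, 32.6 and 56.2 in paused samples. It rose (log2 change 0.80, SE 0.24, adjusted p = 0.0217 by limma-trend), with the lowest paused sample close to the highest control samples. The call ended after TMM rescaling (0.71, adjusted p = 0.0567), after rescaling to total reads, after the loess correction and in DESeq2. It also ended without control replicate 1, control replicate 4 or paused replicate 4 (up to 0.137). The sums of Hdac2 and of Mbd3, a core NuRD subunit, were called (log2 changes 0.25 and 0.30), but not after TMM rescaling (adjusted p = 0.25 for either), and those of Chd1, Hdac1 and Chd4 were not (0.12, 0.06 and -0.05).

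For BAF, 4 of 47 tested peaks rose (8.51%) and none fell by limma-trend, where 11.0% of all peaks rose and 2.91% fell. At an unadjusted p under 0.05 with limma-trend 4 were lower, edgeR with TMM called 1 lower and DESeq2 0. The median log2 change of the 47 peaks, -0.04, was the lowest of the 8 groups, and 20 of them lie at Arid1a, whose median was -0.26. The peak medians of Smarca4, Smarcc1 and Smarcd1 were 0.04, 0.22 and 0.15. As sums, all 4 BAF genes lay above 0, with a median of 0.12 where that of all genes was 0.15. Smarcc1, a scaffold subunit, has a peak inside the gene at chr9:110206135-110206335, 33.9 kb from its nearer end. It had 134, 116, 105 and 128 scaled reads in control and 164, 202, 154 and 178 in paused samples, with no overlap (log2 change 0.52, SE 0.12, adjusted p = 0.00354 by limma-trend). The call held after TMM rescaling (0.42, adjusted p = 0.021) and ended after the loess correction (0.32, adjusted p = 0.0886) and in DESeq2. Its sum rose from 522 ± 17.8 to 616 ± 31.7 (SD over 4 samples in each group). The log2 change was 0.24 with an SE of 0.07, and limma-trend gave an adjusted p of 0.00895, but the change was 0.14 after TMM rescaling (adjusted p = 0.174).

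Arid1a, the DNA-binding subunit of canonical BAF, has its upstream start-site peak over the window printed above. It had 238, 245, 242 and 238 scaled reads in control and 257, 319, 312 and 333 in paused samples. On the log2 scale the change was 0.33 (SE 0.11, adjusted p = 0.0311 by limma-trend). The call ended after TMM rescaling (0.23, adjusted p = 0.145) and without any 1 of control replicates 1, 3 and 4 and paused replicates 2, 3 and 4 (up to 0.124). It also ended after rescaling to total reads, after the loess correction, in edgeR with TMM and in DESeq2. Smarca4, the ATPase BRG1, has a rising peak 2653 bp past its end, at chr9:21706783-21706983, singled out after its values were seen. It had 46.7, 60.9, 67.7 and 54.4 in control and 65.8, 99.4, 110 and 108 in paused samples, where paused replicate 1 lies just below control replicate 3. The log2 change of 0.71 (SE 0.16, adjusted p = 0.00233 by limma-trend) was called in all 19 alternatives, with adjusted p up to 0.0285. The sums of Arid1a, Smarca4 and Smarcd1 were not called (log2 changes 0.12, 0.11 and 0.10).

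Crebbp, the acetyltransferase CBP and partner of Ep300, had the smallest adjusted p of all 440 peaks. The peak lies inside the gene, 60.1 kb from its nearer end, at chr16:4153745-4153945. Control samples had 34.6, 25.1, 27.1 and 36.7 scaled reads and paused samples 64.6, 69.4, 72.9 and 75.0. Every paused sample is far above every control sample, and the log2 change was 1.18 (SE 0.17, adjusted p = 1.35e-05 by limma-trend). The call held in all 18 alternatives that tested the peak, with log2 changes from 1.03 to 1.27 and adjusted p up to 0.000315. The peak held 16 to 100 reads per sample.

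The sum over the 5 Crebbp peaks was 156, 145, 119 and 125 in control and 187, 180, 189 and 190 in paused samples, with no overlap. Its log2 change of 0.46 (SE 0.11, adjusted p = 0.00236 with limma-trend) was the largest among the 44 genes, and it stayed called after TMM rescaling (0.36) and the loess correction (0.36) but not in edgeR with TMM, in DESeq2 or after rescaling to total reads (adjusted p up to 0.137). The start-site peak of Crebbp was not called (log2 change 0.39, adjusted p = 0.124).

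The Ep300 sum rose from 503 ± 9.34 to 585 ± 40.2 (SD over 4 samples in each group). In log2 terms the change was 0.22 with an SE of 0.07, and limma-trend gave an adjusted p of 0.0191. That call ended after TMM rescaling (0.11, adjusted p = 0.303) and without paused replicate 1 or paused replicate 4 (up to 0.0782). Kat8 is the one gene with a falling peak and no rising peak. The peak, 375 bp inside its 3′ end at chr7:127925363-127925563, also belongs to Prss8 by the same rule, and had 108, 93.2, 134 and 140 in control and 104, 61.5, 96.2 and 85.5 in paused samples. The groups overlap, and the log2 change was -0.46 (SE 0.15, adjusted p = 0.038). It was -0.56 after TMM rescaling (adjusted p = 0.0144), and the call ended in DESeq2 and without any 1 of control replicates 3 and 4 and paused replicates 2 and 4 (up to 0.192).

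**Figure D5:**
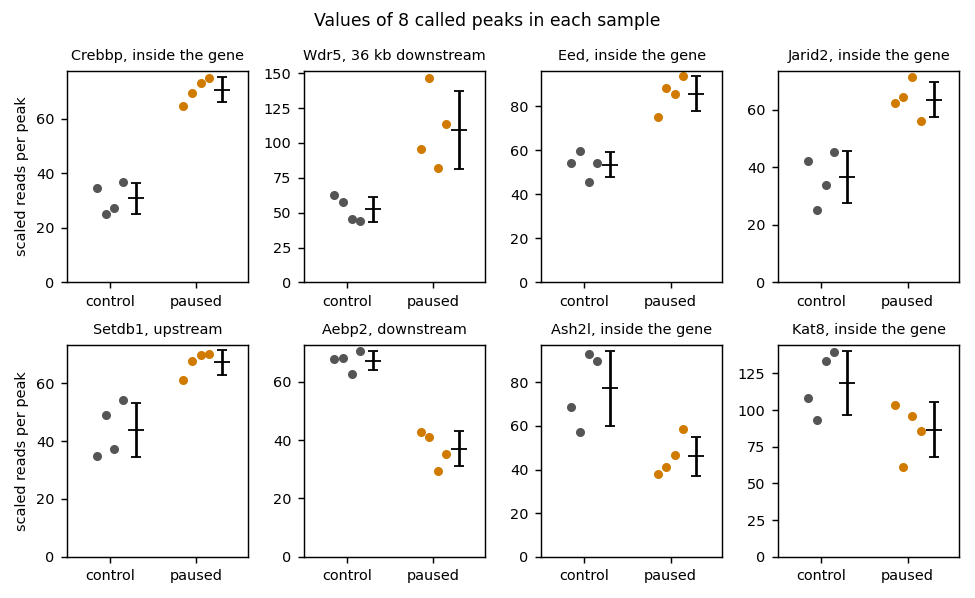
Scaled reads of 8 called peaks in each control (grey) and paused (orange) sample, with mean and SD (n = 4) beside the points and every axis starting at 0. Crebbp, Wdr5, Eed, Jarid2 and Setdb1 lie higher in all 4 paused samples, Aebp2 lies lower in all 4, and Ash2l and Kat8 fell with overlapping groups.

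Of the 48 called peaks 6, and of the 19 called sums 0, kept their call in every alternative that could be run. The 6 peaks are at Crebbp (1), Wdr5 (2), Aebp2 (1, the one nearest the gene), Ash2l (1, the falling one) and Smarca4 (1). They lie inside the genes or past their ends, and not within 1 kb of a listed start site. Only 5 of the 48 called peaks lie that close to a listed start site, and Ash2l has none listed, so no trait is read from this. The share of all called peaks that keep their call in this way was not counted. The exons and introns under the 6 peaks were not assigned. For other calls, the alternatives named in the text are not always all that ended them.

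Of 63 other genes of the same families 62 were tested, and with limma-trend 18 sums (29.0%) rose, where 30.1% of all genes did. Downward 1 was called, against 1.39% of all genes: Rbbp5, a partner of Wdr5 and Ash2l in the Kmt2 complexes (log2 change -0.34). Their median log2 change was 0.14, and that of all genes 0.15. Kdm3a, an H3K9 demethylase, had the smallest adjusted p (log2 change 0.40), followed by the acetyltransferase genes Kat6b (0.19) and Kat6a (0.35) and by Arid1b, the paralogue of Arid1a (0.19). The calls of Kat6b and Arid1b ended after TMM rescaling (0.09, adjusted p = 0.125, and 0.08, adjusted p = 0.165), that of Kat6a after the loess correction (0.19, adjusted p = 0.0900), and that of Kdm3a held under either (0.29, adjusted p = 0.00685, and 0.22, adjusted p = 0.0354). After TMM rescaling 2 of the 62 were higher and 1 lower, against 7.66% and 2.39% of all genes, and after the loess correction 1 was higher and 3 were lower, against 4.79% and 4.50%.

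The member peaks together took a nearly constant share of the signal. Their summed scaled reads were 25754, 26600, 25587 and 26072 in control and 27907, 28953, 28582 and 29551 in paused samples. As a share of all scaled reads that was 0.352%, 0.356%, 0.341% and 0.341% in control and 0.346%, 0.352%, 0.331% and 0.348% in paused samples. The sums do not overlap between the groups and the shares do. In the authors' deposited table, 38 member peaks have an FDR under 0.05, 34 of them higher and 4 lower, and 37 of the 38 passed the test here with the same sign. The share of all peaks under that FDR was not counted, so the 38 are not read as many or few. Both tests use the same reads, so their match is not independent support.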

How the data were processed

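ATAC-seq was carried out on 4 control and 4 paused samples of E14 cells. The submitters' processing notes name FastQC, Trim Galore, Bowtie2 2.4.1, MACS3 3.0.3, DiffBind 3.16.0 and build mm10, without roles or settings; read filters and the handling of the Tn5 offset are not given in the sources used here. The signal deposited by the authors is reads per 201 bp peak, in 1 peak set for all samples, divided by 1 factor per sample: 100% of values in each column were whole reads within 0.01. The authors also deposited log2 concentrations and folds, with p-values and FDR of their own comparison per the file headers. No per-sample column was left unused. Genes and start sites came from RefSeq GRCm38.p6.

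The main test was limma-trend (limma 3.58.1, R 4.3.3) on log2(value + 1) over all 8 samples without covariates, at a mean of at least 10, for peaks and for sums over each gene's peaks, with Benjamini-Hochberg adjustment over all peaks or genes. On the recovered reads, edgeR 4.0.16 called 9428 peaks higher and 6759 lower with TMM, and 16424 and 4621 with the deposited factors; DESeq2 1.42.0 called 3902 and 1892. Other alternatives were pseudocounts of 0.1 and 5, no filter, a mean of at least 50 reads, 3 rescalings (TMM, total reads, loess with span 0.3), a replicate block, each sample left out, and narrower joining of peaks to genes. The fitting was tested on simulated data. The members and lists were chosen with earlier results of these data known. Named with full values were up to 3 called peaks per group by adjusted p without overlap of the groups, up to 12 called sums by adjusted p, and the start-site peaks of 10 preset genes; other called peaks and sums are named after their values were seen. With 18 to 91 median reads per peak, weak peaks carry the largest errors.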

Additional observations from a re-analysis of the deposited data

Results flagged for a closer look

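In 152 groups of 4 samples (the control and the paused values of each called or named peak or sum), 18 held a sample set apart from the other 3 by a gap above Dixon's 95% critical value. Chance gives about 1 in 20 for independent groups. These groups reuse the same 8 samples, hold sums beside their own peaks and were mostly taken because they were called. The 18 are therefore not read as an excess. Control replicate 2 was the sample concerned in 6 of them: it was lowest at the Cbx7 peak inside the gene (194.68 scaled reads, the others 221.89 to 226.9) and at a rising Ezh1 peak before the gene (100.32, the others 111.68 to 113.45), and highest at the Setdb1 peak near the 3′ end (51.36, the others 31.8 to 32.33), at the Jarid2 start-site peak (75.24, the others 52.9 to 55.88) at the Kdm1a start-site peak (220.95, the others 161.79 to 167.64) and at a rising Mtf2 peak (137.35, the others 128.6 to 129.32). Control replicate 3 had the lowest Jarid2 sum (2048.87, the others 2236.99 to 2255.63), the lowest value at a rising Jarid2 peak (127.0, the others 153.49 to 158.85) and the highest Kdm5b sum (1048.16, the others 943.5 to 953.06), and control replicate 1 the lowest value at the Ezh2 start-site peak (256.85, the others 299.71 to 307.13). Paused replicate 4 was lowest at the Eed start-site peak (178.08, the others 223.43 to 231.87) and highest at the Mtf2 peak 21.5 kb before the gene (33.98, the others 29.48 to 29.99). Paused replicate 1 was lowest at the Chd1 peak by its gene end (149.96, the others 178.08 to 179.99). Paused replicate 2 had the lowest Suz12 sum (479.5, the others 530.63 to 538.41) and the highest Kdm2b sum (1776.02, the others 1629.21 to 1648.38). Paused replicate 3 was highest at the Kmt2c start-site peak (211.02, the others 184.54 to 185.72). At a rising Chd1 peak inside the gene both groups held such a sample, control replicate 4 with 77.88 (the others 52.55 to 55.88) and paused replicate 3 with 85.34 (the others 78.5 to 79.6).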

How the results depend on the processing

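The counts of called members moved with the scaling and with the test program. Higher peaks (39) numbered 17 after TMM rescaling, 10 after rescaling to total reads, 10 after the loess correction and 4 in DESeq2; lower peaks (9) numbered 18 after rescaling to total reads, 22 in edgeR with TMM, 4 in DESeq2 and 5 with a mean of at least 50 reads. Higher genes (19) numbered 4 after TMM rescaling, 0 after rescaling to total reads, 2 after the loess correction, 3 in edgeR with TMM and 1 in DESeq2, and lower genes (0) numbered 1 after each of the 3 rescalings and 1 in edgeR with TMM. Of all 127402 peaks, 5743 were higher and 6827 lower after rescaling to total reads, and 9428 and 6759 in edgeR with TMM. DESeq2 called 3902 and 1892. With a mean of at least 50 reads 791 of 44882 were lower. Of all 18456 genes, 738 were higher and 899 lower with total reads, 1586 and 447 in edgeR with TMM, and 829 and 222 in DESeq2. Counting only member peaks inside the gene left 16 higher and 3 lower of 280 tested (5.71% and 1.07%). The shares of all 440 tested member peaks were 8.86% and 2.05%. Counting only those within 1 kb of a gene end left 7 and 2. Leaving out 1 sample gave 19 to 38 higher peaks, 5 to 11 lower peaks, 9 to 19 higher genes and 0 lower genes. Why the counts moved was not tested.

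Signs reversed for the sums of Jarid2 (-0.0174 after rescaling to total reads), Kdm2b (-0.0329 with total reads, -0.0377 with loess) and Cbx7 (-0.0371 with total reads, -0.0584 with loess), for the start-site peaks of Ezh2 (-0.0020 with total reads, -0.0543 with loess), Rnf2 (-0.0058 with loess) and Kat8 (-0.0037 with total reads, -0.0558 with loess), and for the Chd1 peak by its gene end (-0.0407 with TMM, -0.0954 with total reads, -0.1439 with loess, -0.0215 in edgeR with TMM, -0.0331 in DESeq2).

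Deviations of same-numbered samples (numbers from the labels) correlated by 0.079, 0.036, 0.133 and 0.039. Numbers 1, 3 and 4 correlated best with their own number in both groups, and number 2 best with number 1. Since 1 of the 4 correlations was above 0.1, the numbers were not taken as pairing the samples, and the best matches are a hint from the data, not the design. With the replicate number as a block, 46 member peaks were higher and 13 lower, and 21 member genes were higher and 0 lower. The same fit called 17371 of all 127402 peaks higher and 4623 lower, and 6940 of all 18456 genes higher and 322 lower. The higher peaks and sums named neither by the rule nor among the falls were put through the same alternatives after seeing the data.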
